A study of Homo sapiens with 112 samples.

Results

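VCaP and LAPC4, human prostate cancer cell lines, were compared in the absence of androgen by RNA-seq, with 8 libraries of VCaP and 7 of LAPC4 out of a series with 97 other libraries. Before treatment both lines spent 2 days in 10% charcoal-stripped serum, which is depleted of steroid hormones, and they then received the vehicle DMSO for 22 h, with no R1881 (a synthetic androgen) and no darolutamide (an androgen antagonist) in either arm. Of 58684 genes listed, the 19218 with at least 10 reads in at least 4 of the 15 libraries were tested. Each line is 1 culture model, the replicates are libraries of that line, and nothing in the labels ties a replicate to a separate thaw or day. P-values therefore measure the spread between libraries, and a difference between them is one between single lines, not between classes of tumour.

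Prostate luminal cells are the secretory cells of the gland. They depend on androgen, and they are known by kallikreins, acid phosphatase and simple keratins, whereas basal cells carry KRT5 and KRT14 and the rare neuroendocrine cells carry chromogranins. VCaP was derived from a vertebral metastasis and is known for a fusion that places the ETS factor ERG behind the androgen-controlled start of TMPRSS2. LAPC4 came from a lymph node metastasis grown as a xenograft and carries no such fusion.

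The lines differed at most genes. With edgeR's quasi-likelihood test, 88.2% of the genes tested had an adjusted p under 0.05. A gene was called where its log2 fold change (VCaP minus LAPC4) also lay beyond 1, that is a factor of 2, which held for 4888 genes higher in VCaP (25.4%) and 4392 higher in LAPC4 (22.9%). Scaled by library totals alone, the counts were 4233 and 5466 and the median of all genes moved by -0.24 on the log2 scale, so small differences depend on the scaling. The shares with TMM factors are the background for every list below. A member that passed the read minimum through only 1 line had to differ, so the counts of lists of rarely expressed genes are descriptions of the members that passed. Among the calls, 1903 lay beyond 5 on the log2 scale. Levels are CPM, the reads of a gene scaled to a common library size scaled by TMM factors, and a level is given as the lowest, median and highest library of a line. The 187 called genes that are named below had adjusted p-values between 1.58e-28 and 1.16e-05, and in all of them except CDT1 and HOXB7 no library of one line overlapped with a library of the other. Such a separation of the 15 libraries held for 35.9% of all genes tested with VCaP higher and for 35.5% with LAPC4 higher.

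**Figure D1:**
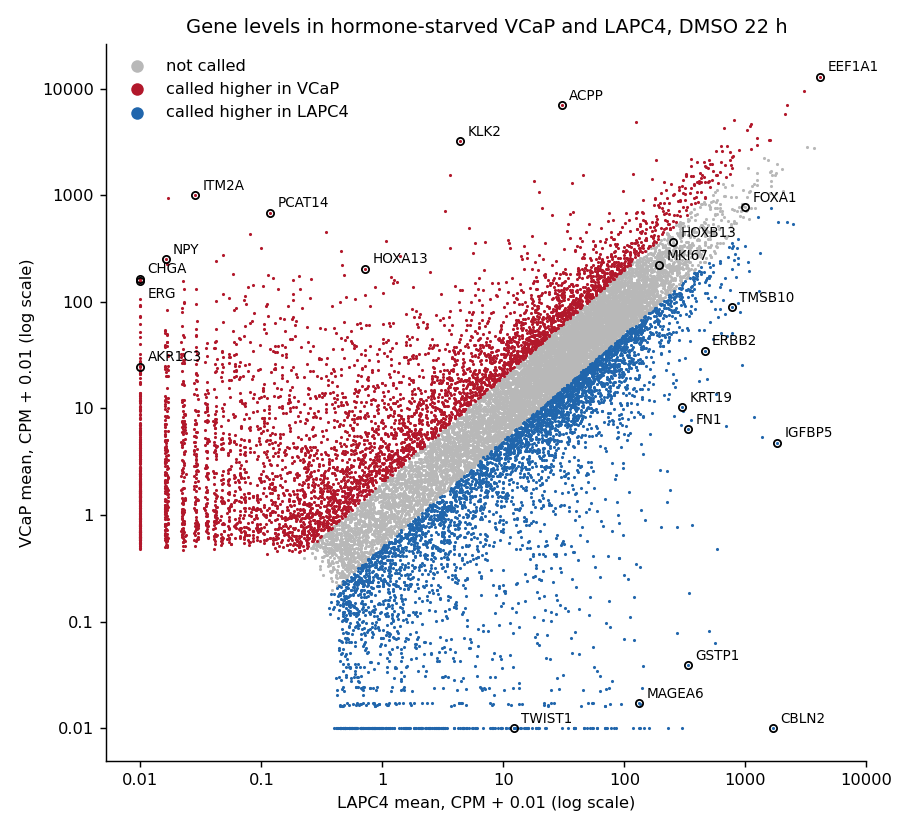
Mean level of each tested gene in the 7 LAPC4 libraries (x axis) and the 8 VCaP libraries (y axis), in CPM plus 0.01 on log scales, with genes called higher in VCaP in red, genes called higher in LAPC4 in blue and other genes in grey. KLK2, ACPP and PCAT14 lie far above the diagonal, CBLN2, GSTP1 and IGFBP5 far below it, and FOXA1, HOXB13 and MKI67 within a factor of 2.

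VCaP libraries held 12951648 to 21845652 reads in genes and LAPC4 libraries 19330396 to 21885422, a difference that a two-sided exact permutation test over the 15 libraries did not resolve (p = 0.0842, 0.133 adjusted over 5 library properties). The 100 most abundant genes took 20.9 to 21.9% of the reads in VCaP and 13.6 to 14.2% in LAPC4, and mitochondrial genes 1.13 to 1.29% and 1.45 to 1.87%. For both of these shares the lines did not overlap (exact permutation p = 0.000311, the smallest that 8 against 7 libraries can give). Neither the number of genes with a read (p = 0.179) nor the slope of counts on GC content (p = 0.107) reached the threshold.

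ERG checked the labels. It was at 147, 156 and 162 CPM in the VCaP libraries and had no read in any LAPC4 library, so it was at least 8237-fold higher in VCaP, taking 3 reads over the LAPC4 group as the floor. Of the 27 ETS factors listed, 21 were tested, 5 were called higher in VCaP, 7 higher in LAPC4 and 9 were not called, with a median log2 fold change of -0.10. The ETS gene next to ERG in size was FEV, at 1.74, 3.003 and 3.79 CPM in VCaP, and ELF5 was at 6.61 to 8.62 against 0.629 to 1.23. LAPC4 carried more of the PEA3 members ETV4 (log2 fold change -5.67 ± 0.15, SE) and ETV5 (-4.04 ± 0.19) and of ELF4 (-4.26 ± 0.11). ETV4 was at 17.8, 21.6 and 22.8 CPM in LAPC4 and at most 0.818 in VCaP. ELK4 did not differ beyond its error (-0.02 ± 0.05, adjusted p = 0.685).

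All 15 genes listed as higher in ERG-positive prostate tumours were tested, and 12 were called higher in VCaP, 1 higher in LAPC4 and 2 were not called, with a median log2 fold change of 2.54. TDRD1, a piRNA-pathway gene of the germline, was at 135, 140.3 and 153 CPM in VCaP and at most 0.17 in LAPC4. PLA1A, a phosphatidylserine phospholipase, was at 43.1, 46.5 and 50.7 CPM and 3735 times higher in VCaP, with a counting interval of 1034 to 30843 that rests on 2 reads in the other line. The potassium channel gene KCNH8 was low but present in every VCaP library (2.64 to 4.203 CPM). CRISP3, a secreted cysteine-rich protein, was expressed in both lines, at 261, 279 and 317 CPM against 38.98, 46.9 and 50.6. PLAU, the urokinase gene, went the other way (-2.89 ± 0.35) at levels of at most 1.05 CPM, and VWA2 stayed within a factor of 2 (0.53 ± 0.08).

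Some luminal genes were far higher in VCaP and others were within a factor of 2. 26 of the 27 listed were tested, 11 were called higher in VCaP, 4 higher in LAPC4 and 11 were not called, with a median log2 fold change of 0.47. KLK2, a kallikrein protease, was at 2826, 3286 and 3349.5 CPM in VCaP and 3.81, 4.37 and 5.38 in LAPC4. ACPP, prostatic acid phosphatase, was at 6561, 6937 and 7521 against 27.3, 31.1 and 33.7 CPM, and NPY, a secreted neuropeptide, at 214, 248 and 292 CPM in VCaP with 1 read over all LAPC4 libraries. No LAPC4 library came near the lowest VCaP library for any of the 3.

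The log2 differences were 9.51 ± 0.07 for KLK2 and 7.85 ± 0.06 for ACPP (SE, 8 and 7 libraries). TRPM8, a cold-sensitive channel of prostate epithelium (6.56 ± 0.07), the metalloreductase gene STEAP2 (5.77 ± 0.06) and its relative STEAP1 (4.20 ± 0.04) were also higher in VCaP. The same held for the transporter gene SLC45A3 (3.28 ± 0.07).

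Other luminal genes were close. KLK3, which encodes prostate-specific antigen, was at 16.3, 19.8 and 22.2 CPM in VCaP and 11.8, 13.3 and 14.7 in LAPC4, a difference within a factor of 2 (0.57 ± 0.08). The pioneer factor FOXA1 (-0.37 ± 0.03) and the posterior homeobox factor HOXB13 (0.52 ± 0.07) stayed within a factor of 2, as did TMPRSS2 (-0.46 ± 0.04), FOLH1, the prostate-specific membrane antigen gene (-0.83 ± 0.03), EPCAM (0.41 ± 0.04) and AMACR (-0.59 ± 0.09). SPDEF had the smallest difference of the list, 0.27 ± 0.17 (adjusted p = 0.137), with 64.7 to 175 CPM in VCaP and 73.4 to 129 in LAPC4.

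LAPC4 was higher for 4 luminal genes. KRT19, a keratin of simple epithelia, was at 222, 303 and 359 CPM in LAPC4 and 6.57, 10.4 and 14.2 in VCaP. PSCA, prostate stem cell antigen, was at 30.95 to 50.5 against 0.63 to 1.81 CPM. KRT8 was 2.41-fold higher in LAPC4, and MSMB, a secretory protein gene, was near the limit of detection in both lines (at most 1.57 CPM).

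**Figure D2:**
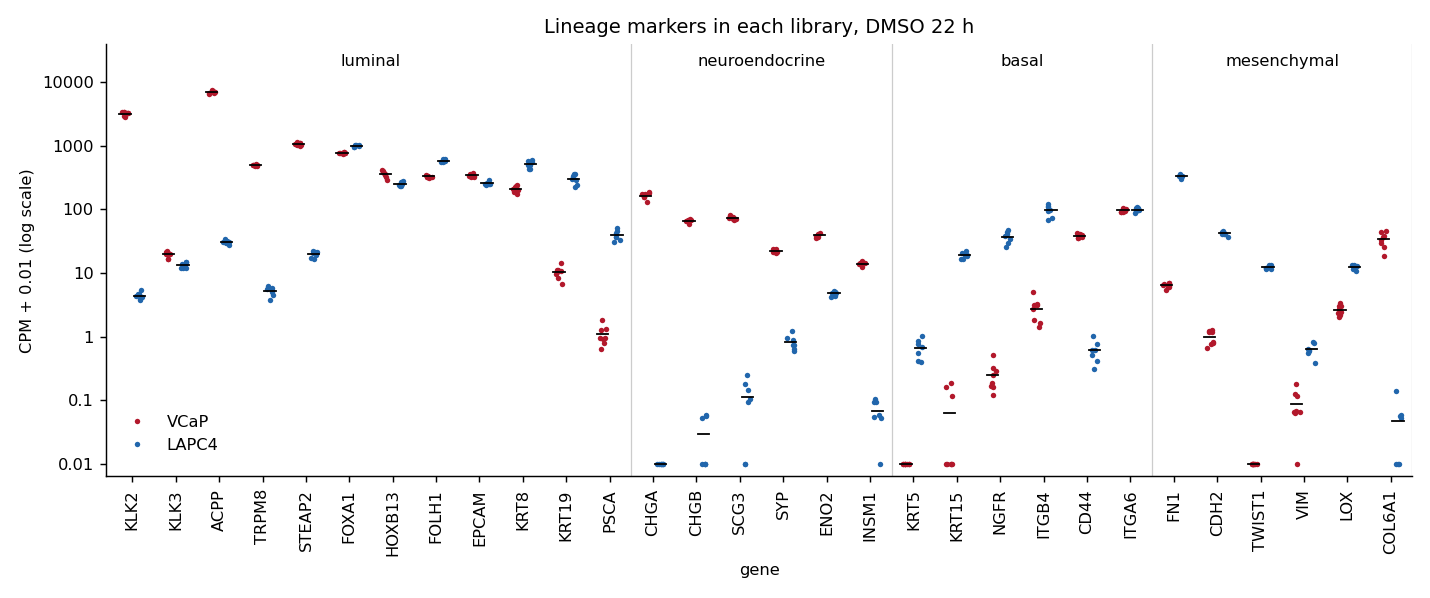
Level of lineage markers in each of the 8 VCaP (red) and 7 LAPC4 (blue) libraries, in CPM plus 0.01 on a log scale, grouped by cell type, with black bars at the line means. KLK2, ACPP and the chromogranins CHGA and CHGB separate the lines upward in VCaP, KRT19, FN1 and CDH2 upward in LAPC4, and FOXA1, EPCAM and ITGA6 lie near each other.

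Neuroendocrine markers were mostly a VCaP feature. 13 of the 20 listed markers were tested, 11 were called higher in VCaP, 2 higher in LAPC4 and 0 were not called, with a median log2 fold change of 7.79. CHGA, chromogranin A of secretory granules, was at 128, 168 and 186 CPM in VCaP and had no read in LAPC4, at least 8700-fold higher in VCaP. CHGB was at 58.8, 66.7 and 70.9 CPM and 3499 times higher in VCaP, with a counting interval of 1197 to 16968 that rests on 3 reads in the other line. SCG3, another granin, was at 66.9, 73.5 and 80.4 against at most 0.24 CPM.

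Synaptophysin (SYP, 4.77 ± 0.10), neuron-specific enolase (ENO2, 3.02 ± 0.06) and the transcription factor gene INSM1 (7.80 ± 0.15) were likewise higher in VCaP. SYT1, among the 2 markers called higher in LAPC4, was at a very low level (at most 1.06 CPM). The level of the other marker called higher in LAPC4 is not given here, so SYT1 does not stand for both. The 13 tested markers together summed to at most 26.6 CPM in a LAPC4 library. REST, which represses neuronal genes, was added after its values were seen. It was at 51.3, 55.4 and 59.6 CPM in VCaP and 93.8, 105 and 115 in LAPC4. This difference was within a factor of 2 and not called (-0.91 ± 0.05), and a link to the markers was not tested. Granins and luminal genes were measured in the same RNA, so the share of cells that carry each was not measured.

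Basal genes went both ways. 12 of the 19 listed were tested, 3 were called higher in VCaP, 6 higher in LAPC4 and 3 were not called, with a median log2 fold change of -1.19. The defining basal keratin KRT5 had no read in VCaP and reached at most 1.01 CPM in LAPC4. KRT15 (16.3 to 22.1 CPM in LAPC4 against at most 0.172), the nerve growth factor receptor NGFR (-7.31 ± 0.20) and the hemidesmosome integrin ITGB4 (-5.20 ± 0.18) were higher in LAPC4. CD44, a hyaluronan receptor, was at 35.7, 38.98 and 42.3 CPM in VCaP and 0.298, 0.603 and 1.01 in LAPC4. The partner of ITGB4, ITGA6, was at nearly the same level in both lines (-0.04 ± 0.05, adjusted p = 0.47). TP63, the defining basal factor, did not reach the read minimum.

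Of 18 mesenchymal markers, 12 were tested, 3 were called higher in VCaP, 8 higher in LAPC4 and 1 was not called, with a median log2 fold change of -2.62. Fibronectin (FN1) was at 304, 337 and 364 CPM in LAPC4 and 5.46, 6.38 and 6.998 in VCaP. N-cadherin (CDH2) was at 37.1 to 44.8 against 0.643 to 1.24 CPM, and TWIST1 at 11.6 to 13.2 CPM in LAPC4 with no read in VCaP. LOX, a collagen crosslinking enzyme, was 4.69-fold higher in LAPC4. Vimentin (VIM), the best known gene of the list, was below 1 CPM in every library of both lines, with 0.371 to 0.796 CPM in LAPC4 and at most 0.169 in VCaP. COL6A1, a collagen, was higher in VCaP, at 18.3, 34.4 and 45.2 CPM. E-cadherin (CDH1) stayed abundant in both, at 393, 398 and 419.9 CPM in VCaP and 637, 680.3 and 719 in LAPC4. Of 13 blood and endothelial markers, 1 passed the read minimum, at a summed level of at most 1.44 CPM.

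Most keratins that were measured were higher in LAPC4. Among 35 keratins listed, 17 were tested, 1 was called higher in VCaP, 14 higher in LAPC4 and 2 were not called, with a median log2 fold change of -5.64 (-4.89 with genes at 0 in a line put at their bound). KRT4 (1.62 to 3.27 CPM) and KRT7 (1.86 to 3.35 CPM) were low in LAPC4 and at most 0.0585 and 0.157 CPM in VCaP, while KRT10 differed least (-0.61 ± 0.08). Of the adhesion list, 39 of the 56 members were tested, 12 were called higher in VCaP, 16 higher in LAPC4 and 11 were not called, with a median log2 fold change of -0.50. The cadherins CDH18 (134, 144 and 157 CPM), CDH12 (324, 335 and 376 CPM) and CDH11 (41.8, 47.7 and 48.5 CPM), known from neural and mesenchymal tissue, were near or at 0 in VCaP, where CDH12 reached at most 0.424 CPM. P-cadherin (CDH3) was 45.2-fold higher in LAPC4. VCaP in turn held low levels of CDH4 (3.36 to 7.97 CPM), the intestinal cadherin CDH17 (2.01 to 3.305 CPM) and CDH23 (0.893 to 2.04 CPM). The integrin ITGAV was the most alike member (0.00 ± 0.05, adjusted p = 0.953).

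Genes that androgen is known to induce were tested next, since the cells had been without androgen. All 37 listed genes were tested, and 16 were called higher in VCaP, 8 higher in LAPC4 and 13 were not called, with a median log2 fold change of 0.32. Apart from KLK2, VCaP was highest against LAPC4 for ABCC4, an efflux transporter (122, 128 and 144 CPM against 4.15, 4.42 and 4.899), and HPGD, which inactivates prostaglandins (122, 128 and 145 against 5.57, 5.82 and 7.15). LAPC4 was higher for TSC22D3, a leucine zipper gene that glucocorticoids also induce (155, 162 and 162 CPM against 10.4, 12.3 and 13.2), for SEC24D of the COPII coat (-2.61 ± 0.04) and for HMGCS1 of cholesterol synthesis (-2.53 ± 0.04). FKBP5, a steroid receptor co-chaperone, was at 74.9, 78.9 and 83.9 CPM in VCaP and 108, 114 and 123 in LAPC4. Without androgen, classical targets such as TMPRSS2, FKBP5 and KLK3 were therefore no more than a factor of 2 apart, while KLK2 and ABCC4 were far apart.

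The same list was set beside 22 h of 1 nM R1881 (8 libraries of VCaP with DMSO and 9 with R1881, 7 and 10 of LAPC4). With R1881, 31 of the 37 were called higher in VCaP and 1 in LAPC4, with a median log2 difference of 2.39, against 0.08 over all 19839 genes tested there, of which 24.9% were called higher in VCaP and 22.6% higher in LAPC4. The line difference moved toward VCaP by more than 1 in 26 of them and toward LAPC4 by more than 1 in 1, HPGD (edgeR interaction test, adjusted p under 0.05), against 8.69% and 10.8% of all genes. Some of these shifts made the lines more alike, as for SEC24D (-2.61 with DMSO and -0.01 with R1881). The list was compiled for its rise with androgen, and this contrast uses the same DMSO libraries as the comparison above. The shift was large for STEAP4, which went from 7.95 ± 0.437 to 1065 ± 67.02 CPM in VCaP and 21.8 ± 2.12 to 15.2 ± 1.696 CPM in LAPC4 (mean ± SD). NCAPD3, a condensin subunit, went from 114 ± 3.72 to 5983 ± 236 CPM in VCaP and 49.7 ± 1.84 to 61.7 ± 2.77 CPM in LAPC4. FKBP5 went from 78.9 ± 3.37 to 3612 ± 153 CPM in VCaP and 116.3 ± 6.23 to 296 ± 12.7 CPM in LAPC4. KLK2 rose in both lines, from 3164 ± 185.1 to 9443 ± 233 CPM in VCaP and 4.46 ± 0.564 to 25.5 ± 3.64 CPM in LAPC4. Its line difference moved toward LAPC4 (-0.93, adjusted p = 9.46e-11 in the interaction test), short of the fold limit of a call.

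**Figure D3:**
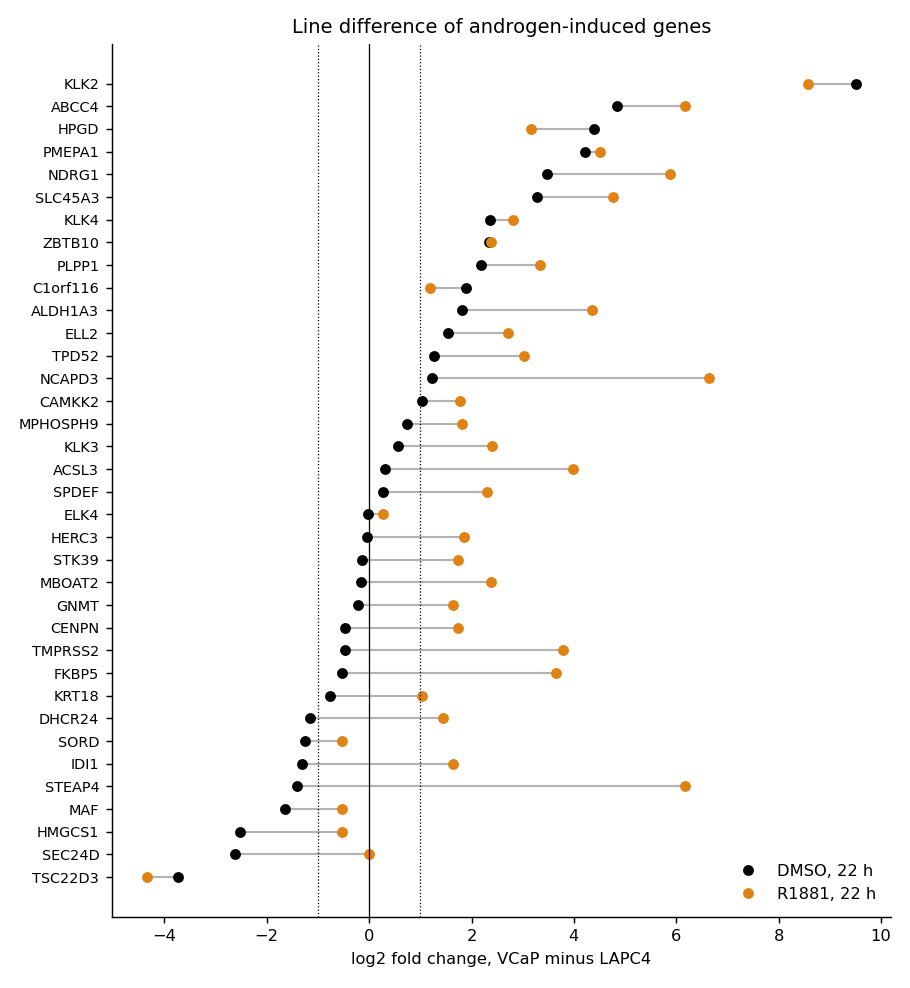
Log2 fold change between VCaP and LAPC4 (VCaP minus LAPC4) for the androgen-induced genes reported here, with DMSO (black) and with R1881 (orange) at 22 h, genes ordered by the DMSO value and dotted lines at a factor of 2. With DMSO the genes run from TSC22D3 to KLK2 on both sides of 0, and with R1881 31 of the 37 listed were called higher in VCaP.

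Enzymes that make and inactivate steroids differed gene by gene. 23 of the 41 genes listed were tested, 11 were called higher in VCaP, 9 higher in LAPC4 and 3 were not called, with a median log2 fold change of 0.47. The AKR1C aldo-keto reductases, which interconvert keto- and hydroxysteroids, had no read in any LAPC4 library. In VCaP AKR1C3 was at 22.2, 24.6 and 27.6 CPM, at least 1309-fold higher in VCaP, AKR1C1 at 4.79 to 6.64, AKR1C2 at 5.09 to 6.78 and AKR1C4 at 2.05 to 3.22 CPM. These paralogs are alike in sequence, so reads may be shared among them, although all of them were at 0 in LAPC4. HSD17B6 was also higher in VCaP (3.44 ± 0.09).

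LAPC4 carried the glucuronidation genes UGT2B11 (120.01, 136 and 145 CPM, at most 0.643 in VCaP) and UGT2B28 (30.4, 34.9 and 37.5 CPM, at most 0.292), and the sulfotransferase SULT2B1 (-5.10 ± 0.21). UGT2B17, the enzyme best known for inactivating testosterone, did not differ beyond its error (-0.08 ± 0.07, adjusted p = 0.285), at 6.11 to 7.99 CPM in VCaP and 6.79 to 8.09 in LAPC4. SRD5A1, a 5-alpha reductase, was 2.28-fold higher in LAPC4. The UGT2B genes share long stretches of sequence and their split is uncertain.

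HOX genes, which set position along the body axis, went both ways, also within a cluster. 28 of the 39 HOX genes listed were tested, 5 were called higher in VCaP, 12 higher in LAPC4 and 11 were not called, with a median log2 fold change of -0.54. HOXA13, the terminal gene of the A cluster, was at 195, 202 and 227 CPM in VCaP and 0.481, 0.754 and 0.865 in LAPC4, and its neighbour HOTTIP, a long noncoding RNA, at 26.9, 30.7 and 33.8 against at most 0.139 CPM. HOXA10 followed (3.19 ± 0.04), HOXA9 next to it was alike (0.01 ± 0.05, adjusted p = 0.879), and HOXA7 was at 7.08 to 9.37 CPM in LAPC4 and at most 0.169 in VCaP. In the B cluster HOXB2, HOXB3 and HOXB5 to HOXB9 were all called higher in LAPC4 at low levels (HOXB6 at 0.922 to 1.79 CPM, -4.63 ± 0.37), whereas HOXB13 at the other end of that cluster was shared. HOXD8 (3.79 to 6.67 CPM) and HOXD13 (1.09 to 1.98 CPM) were detected in every VCaP library and reached at most 0.0455 and 0.048 CPM in LAPC4.

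Of 40 epithelial lineage factors, 32 were tested, 13 were called higher in VCaP, 14 higher in LAPC4 and 5 were not called, with a median log2 fold change of -0.31. The intestinal factor CDX2 (1.69 to 2.91 CPM) was found in VCaP, and TBX3 was 7.804-fold higher in VCaP. LAPC4 held the HOX cofactors MEIS2 (20.8, 20.97 and 23.9 CPM, at most 0.0522 in VCaP) and MEIS1 (-3.76 ± 0.09), GATA3 (-5.86 ± 0.33), KLF5 (-3.41 ± 0.06) and TFAP2A (-3.44 ± 0.05). RUNX2 did not differ beyond its error (-0.02 ± 0.11, adjusted p = 0.859).

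Among 26 prostate long noncoding RNAs, 18 were tested, 9 were called higher in VCaP, 2 higher in LAPC4 and 7 were not called, with a median log2 fold change of 0.90. PCAT14 was at 636, 687 and 727 CPM in VCaP and at most 0.232 in LAPC4, and PVT1 was 15.6-fold higher in VCaP. SCHLAP1 was at 1.68, 2.36 and 3.05 CPM in VCaP and 5.24, 5.48 and 6.48 in LAPC4, PCAT6 was LAPC4-high (-3.81 ± 0.16), and PCAT7 was alike (-0.04 ± 0.08).

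WNT2 was the WNT gene with the largest difference, and ligands and receptors went both ways. 44 of the 66 pathway genes were tested, 20 were called higher in VCaP, 13 higher in LAPC4 and 11 were not called, with a median log2 fold change of 0.54. WNT2 was at 86.6, 92.8 and 99.04 CPM in VCaP with no read in LAPC4, at least 4940-fold higher in VCaP. WNT3 (7.09 to 8.62 CPM) and the secreted inhibitor WIF1 (1.09 to 1.79 CPM) followed. WNT5A, a ligand that acts largely without beta-catenin, was at 144, 154 and 172 CPM in LAPC4 and 13.6, 15.01 and 16.6 in VCaP. DKK1, an inhibitor (1.34 to 2.54 CPM), and WNT9A (-3.32 ± 0.25) were higher in LAPC4, as was the receptor FZD6 (6.68-fold higher in LAPC4). The co-receptor LRP6 was alike (-0.01 ± 0.04, adjusted p = 0.856).

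Growth factor receptors went both ways, with 3 ERBB receptors higher in LAPC4 and IGF1R and MET higher in VCaP. 42 of the 52 genes listed were tested, 16 were called higher in VCaP, 18 higher in LAPC4 and 8 were not called, with a median log2 fold change of -0.50. ERBB2, the HER2 gene, was at 379.96, 484 and 519 CPM in LAPC4 and 24.95, 36.4 and 40.4 in VCaP. ERBB3 was at 736, 777 and 819.7 against 47.1, 51.2 and 54.1 CPM, and ERBB4 at 58.2, 60.8 and 71.8 CPM against at most 0.0992. All 3 receptors were thus higher in every LAPC4 library.

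EPHA3 was at 64.04, 68.9 and 78.6 CPM in LAPC4 with no read in VCaP, KIT was 8.16 to 11.6 CPM against at most 0.105, and EPHA4 was alike (0.16 ± 0.05). VCaP held IGF1R at 261, 276 and 286 CPM against 18.7, 19.8 and 20.9. The ligand IGF1 was in LAPC4, at 33.4, 35.97 and 40.2 CPM and at most 0.169 in VCaP. Of the binding proteins, IGFBP3 was VCaP-high (266, 281 and 312 against 4.33, 5.57 and 6.64 CPM) and IGFBP5 LAPC4-high (1709, 1832 and 1889 against 3.92, 4.601 and 6.96 CPM). Ligand HGF (29.8, 31.6 and 32.99 CPM, at most 0.048 in LAPC4) and its receptor MET (5.75 to 9.88 against 0.306 to 0.637 CPM) were both higher in VCaP, as were NRG2 (1.93 to 2.69 CPM) and PDGFRB (1.16 to 2.23 CPM) at low levels.

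Tumour suppressors and cell-cycle regulators were mostly alike. 37 of the 39 listed were tested, 4 were called higher in VCaP, 7 higher in LAPC4 and 26 were not called, with a median log2 fold change of 0.18, so fewer of them were called than of all genes. RB1 (0.07 ± 0.05) and RBL1 (0.03 ± 0.07) were within a factor of 2, although RNA levels do not show whether a gene is mutated. USP10, a deubiquitinase, was at 89.5, 93.3 and 100.3 CPM in LAPC4 and at most 0.0549 in VCaP. CDK6 (-5.48 ± 0.13) and CCNE1 (-2.72 ± 0.11) were higher in LAPC4, and the CDK inhibitor CDKN1A (2.89 ± 0.07) and E2F3 (1.80 ± 0.05) in VCaP.

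Proliferation genes were balanced at 22 h but not at 8 h. At 22 h all 35 were tested, 4 were called higher in VCaP, 5 higher in LAPC4 and 26 were not called, with a median log2 fold change of -0.00. TOP2A (1.24 ± 0.05), TYMS (1.36 ± 0.04) and AURKA (1.42 ± 0.04) were higher in VCaP. PTTG1 (-1.39 ± 0.05), GINS2 (-1.19 ± 0.07) and CDT1 (-1.09 ± 0.18) were higher in LAPC4. KIF11 was the most alike (-0.00 ± 0.05, adjusted p = 0.983) and MKI67 was within a factor of 2 (0.19 ± 0.06).

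In the 10 VCaP and 10 LAPC4 libraries with DMSO at 8 h, 0 of the 35 were called higher in VCaP and 20 in LAPC4, against 26.6% and 22.8% of all 19610 genes tested at that time. The change of the line difference from 8 to 22 h was tested as an interaction and was called in 23 of the 35, all toward VCaP, against 2.08% of 20048 genes. Scaled over all libraries of the series, MKI67 was at 80.1, 96.5 and 103 CPM in VCaP at 8 h and 195, 215 and 236 at 22 h. In LAPC4 it was at 247, 287 and 340.1 CPM at 8 h and 167, 195 and 227 at 22 h. The summed level of the 35 genes was 1889 to 2110.2 CPM in VCaP at 8 h and 3553 to 3808 at 22 h, and in LAPC4 3779 to 4256 and 3095 to 3353. VCaP at 8 h stood apart below the other 3 groups. The DNA replication genes MCM2, a helicase subunit (0.02), and PCNA, the sliding clamp (0.00), were not called in that test. Mitotic genes such as PLK1 (1.84), CENPA (2.03) and CENPF (1.84) were. Genes of DNA synthesis were not all alike. RRM2 was called (1.10), TYMS moved toward VCaP within the fold limit (0.83) and MCM6 toward LAPC4 (-0.26). Why the times differ was not tested.

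Antigen presentation genes were more often called higher in VCaP. 22 of the 31 listed were tested, 13 were called higher in VCaP, 3 higher in LAPC4 and 6 were not called, with a median log2 fold change of 1.64. B2M, the common class I light chain, was at 142, 154 and 165 CPM in VCaP and 57.9, 60.8 and 66.4 in LAPC4. The peptide transporter genes TAP1 (2.74 ± 0.09) and TAP2 (4.70 ± 0.15) and the immunoproteasome gene PSMB8 (5.95 to 7.72 CPM against at most 0.048) were higher in VCaP, as were the class II genes HLA-DRB1 (6.201 to 8.98 CPM) and HLA-DPA1 (0.522 to 1.36 CPM). HLA-E (-3.56 ± 0.11), HLA-DQB1 (-4.13 ± 0.18) and PSMB10 (-2.29 ± 0.26) were higher in LAPC4, and TAPBP was alike (-0.10 ± 0.07, adjusted p = 0.161). HLA genes are polymorphic, and the alleles of a line that differ from the reference can lose reads, so these levels are uncertain.

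Interferon-induced genes showed no common direction. 26 of the 36 listed were tested, 5 were called higher in VCaP, 6 higher in LAPC4 and 15 were not called, with a median log2 fold change of -0.44. IFI44L (28.7, 30.4 and 34.97 CPM, at most 0.112 in VCaP) and IFI44 (-5.43 ± 0.09) were LAPC4-high, with ISG20 (-3.74 ± 0.24). IFIT5 (2.62 ± 0.08), IFITM3 (2.61 ± 0.19) and MX2 (3.17 ± 0.31) were VCaP-high, and IRF7 was alike (0.25 ± 0.20, adjusted p = 0.255).

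Cancer-testis antigens, germline genes that tumours switch on, were a LAPC4 feature. 21 of the 46 listed passed the minimum, and 3 were called higher in VCaP, 18 higher in LAPC4 and 0 were not called, with a median log2 fold change of -10.58 (-8.82 with genes at 0 in a line put at their bound). MAGEA6 was at 125, 132 and 140.4 CPM in LAPC4 with 1 read over all VCaP libraries. MAGEA4 was at 74.4, 76.9 and 82.1 CPM with none, and XAGE1B at 55.5, 60.5 and 62.5 CPM with none. PRAME, which lies on chromosome 22 outside the X-linked clusters, was at 142, 148 and 151 CPM in LAPC4 and 0.517, 0.738 and 1.61 in VCaP. The exceptions were TDRD1, SSX3 (2.801 to 3.94 against 0.419 to 0.882 CPM) and TEX15 (3.73 to 5.43 against 0.437 to 1.001 CPM). Several of these genes are near-identical copies. CTAG1A and CTAG1B had equal counts in all 7 LAPC4 libraries (3093 reads each in sum), and MAGEA2 and MAGEA2B differed little (10992 and 11021 reads), so such pairs are not independent and their levels may count the same reads.

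Genes whose promoters are known to be methylated in prostate cancer divided as well. 15 of the 26 listed were tested, 6 were called higher in VCaP, 5 higher in LAPC4 and 4 were not called, with a median log2 fold change of 0.32. GSTP1, a glutathione transferase whose promoter is a classical methylation marker of prostate cancer, was at 260.3, 343 and 399.8 CPM in LAPC4 and at most 0.175 in VCaP (-13.24 ± 0.22). Galectin-3 (LGALS3, -8.75 ± 0.10) and the retinoic acid receptor RARB (-4.82 ± 0.14) were also LAPC4-high. GPX3, a secreted glutathione peroxidase, was the opposite of GSTP1, at 141, 157 and 175 CPM in VCaP with 2 reads over all LAPC4 libraries. AOX1 was VCaP-high (6.63 ± 0.18) and FHIT was within a factor of 2 (0.32 ± 0.12). Methylation was not measured in these libraries.

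The bases before the start of 3 genes that were at or near 0 in 1 of the lines are given here, since these promoters differ in their CpG content. They are from RefSeq (GRCh38.p14), written in the direction of transcription, and capitals mark CpG dinucleotides, the sites that can be methylated. GSTP1 (chr11:67583562-67583811, plus strand) holds 28 in 250 bases, MAGEA6 (chrX:152769690-152769939, minus strand) 15 and AKR1C3 (chr10:5048531-5048780, plus strand) 0. The median of 27194 RefSeq promoters is 11. The counts describe the reference and not the state of either line.
GSTP1: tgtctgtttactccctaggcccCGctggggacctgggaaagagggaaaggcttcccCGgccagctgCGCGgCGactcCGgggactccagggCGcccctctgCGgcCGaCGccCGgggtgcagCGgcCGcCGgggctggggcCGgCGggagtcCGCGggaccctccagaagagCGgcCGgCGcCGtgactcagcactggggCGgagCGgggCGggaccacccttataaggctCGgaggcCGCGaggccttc
MAGEA6: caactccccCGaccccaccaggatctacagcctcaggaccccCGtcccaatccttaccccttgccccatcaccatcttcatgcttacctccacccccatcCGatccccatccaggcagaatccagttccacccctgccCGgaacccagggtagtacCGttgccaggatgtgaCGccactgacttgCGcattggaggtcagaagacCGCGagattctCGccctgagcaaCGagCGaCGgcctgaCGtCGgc
AKR1C3: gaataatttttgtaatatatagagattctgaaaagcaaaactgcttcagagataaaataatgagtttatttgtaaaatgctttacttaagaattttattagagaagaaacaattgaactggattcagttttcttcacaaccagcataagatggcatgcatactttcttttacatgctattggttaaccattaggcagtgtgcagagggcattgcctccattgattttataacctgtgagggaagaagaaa

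Most ribosomal protein genes were called higher in VCaP. The list of cytosolic ribosomal proteins was made after their values were seen, and it is a description. Of 85 listed, 83 were tested, and 63 were called higher in VCaP, 1 higher in LAPC4 and 19 were not called, with a median log2 fold change of 1.44. Together they took 9.095 to 10.2% of reads in VCaP and 3.56 to 3.94% in LAPC4. RPS18 was at 4732, 5175 and 5309.8 CPM in VCaP and 766, 814 and 817 in LAPC4, RPL3 was 3.98-fold higher in VCaP and the elongation factor EEF1A1 3.14-fold higher in VCaP. The 1 called higher in LAPC4 was RPL26L1, a paralog of RPL26 (-1.49 ± 0.06). GAS5, a noncoding transcript that hosts small nucleolar RNAs, was 2.86-fold higher in VCaP.

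Per exon length, the highest genes were largely of this kind. EEF1A1P5, a processed pseudogene of EEF1A1, was the highest in both lines (6855 and 2188 CPM per kilobase of exon), and since it is nearly identical to EEF1A1, the reads of the pair cannot be told apart. Processed pseudogenes took 8.29 to 8.77% of reads in VCaP and 4.54 to 4.61% in LAPC4. Among the highest genes of LAPC4, TMSB10, a thymosin that binds actin, was 8.71-fold higher in LAPC4, and the mitochondrial genes MT-CO1 (-0.18 ± 0.06) and MT-CO3 (0.04 ± 0.05) were within a factor of 2, while the ribosomal RNA gene MT-RNR2 was -0.94 ± 0.06.

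Some genes were on in one line and off in the other. With at least 10 CPM in every library of a line and under 0.1 CPM in every library of the other, 155 genes were on in VCaP only and 81 in LAPC4 only. Of these, 109 and 64 met the same limits in every 8 h DMSO library, which the choice had not used. Fewer, 37 and 50, met both limits in every other library of the series, with R1881 and darolutamide included. The VCaP set was led by ITM2A, a membrane protein (936, 1012 and 1068 CPM, 3 reads in LAPC4), and TRGV9, a T-cell receptor gamma variable segment (915, 955 and 977 CPM, 1 read), with the constant segment TRGC2 (231, 239 and 259 CPM). PKP1, a desmosomal plakophilin (230.4, 282 and 294 CPM), BCAM, a laminin receptor (122, 233 and 311 CPM), and NWD1 (123, 131 and 139 CPM) were further members, beside NPY, CHGA, ERG and GPX3.

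The LAPC4 set was led by CBLN2, a synapse organizer (1534, 1665 and 1814 CPM, at least 78791-fold higher in LAPC4). PCDH7 (221, 228 and 246 CPM), the axonal adhesion gene CNTN5 (122, 134 and 150.1 CPM), PLXDC2 (125, 143 and 157 CPM) and DOK6 (117, 133 and 147 CPM) followed, with the transcript RP11-234O6.2 (272, 299 and 329 CPM). The neighbours BNIP3L and PPP2R2A, which most cells express, were also of this set. The mitophagy receptor BNIP3L (147, 159 and 173 CPM) and the phosphatase subunit PPP2R2A (124, 132 and 146 CPM) had no read in any VCaP library. LAPC4 in turn had no read of the lysosomal enzyme HEXA, at 58.7, 61.95 and 66.4 CPM in VCaP, or of the RNA SNHG6, which hosts small nucleolar RNAs, at 87.2, 89.6 and 100.2 CPM. HEXA was singled out after its values were seen.

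Of the other genes with the largest differences at both times, FRRS1L (at least 5620-fold higher in VCaP) and CPLX2, a regulator of vesicle release (at least 4848-fold higher in VCaP), were on the VCaP side. The proteoglycan VCAN (at least 5566-fold higher in LAPC4), SDR16C5 (at least 4031-fold higher in LAPC4) and the guidance cue SEMA3A (at least 3872-fold higher in LAPC4) were on the LAPC4 side.

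Some of the genes that were off in a line were neighbours. Counting protein-coding genes at 1 CPM or more in every library of a line and under 0.1 CPM in every library of the other, runs of 3 or more neighbours were found at 8 places for VCaP and 4 for LAPC4. The longest VCaP run was AKR1E2 and AKR1C1 to AKR1C4 on chromosome 10, and another was CDK5R2, FEV and the hedgehog ligand IHH on chromosome 2, with IHH at 25.7, 40.95 and 47.97 CPM. All 4 LAPC4 runs were on the X chromosome, the longest being 7 genes of the CSAG and MAGEA families next to the GABA receptor genes GABRE, GABRA3 (19.9, 22.3 and 23.4 CPM) and GABRQ, and one holding NXF2 (36.2, 39.2 and 41.5 CPM). The X chromosome held 20 of the 81 LAPC4-only genes (24.7%), 6 of the 155 VCaP-only genes (3.87%) and 3.403% of genes tested. These 20 and the X-linked runs include near-identical copies, such as CTAG1A with CTAG1B and MAGEA2 with MAGEA2B. Such copies may count the same reads, so the 20 are not independent genes.

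Line differences also followed position over longer stretches. Medians are relative to the median of all genes. Chromosome 16 (-0.72 over 680 genes) and chromosome 1 (-0.50 over 1594) were lower in VCaP. Chromosomes 15 (0.54), 20 (0.52) and 21 (0.51) were higher, and the SD of these medians over the libraries of a line was at most 0.08. On chromosome 20, 34.6% of genes were called higher in VCaP and 9.05% in LAPC4, whereas on chromosome 16 the shares were 13.2% and 39.6%. DNA copy number was not measured here.

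Over windows of 50 neighbouring genes, 4.88% had a relative median beyond 1. In GRCh38, the highest window was chr13:96090107-113099742, with a median of 2.39 and 38 of 50 genes called higher in VCaP, among them the insulin receptor substrate IRS2 (10.69 ± 0.13). The lowest was chrX:139446891-152769716 (-2.31), which holds the MAGEA cluster. Next came the end of the long arm of chromosome 16, chr16:84699986-89972534 (-1.73), where 39 of 50 genes were LAPC4-high, including USP10. The interferon regulatory factor IRF8 in that window went the other way, at 2.43, 2.76 and 3.205 CPM in VCaP with no read in LAPC4. IRS2 and IRF8 were picked out after their values were seen.

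**Figure D4:**
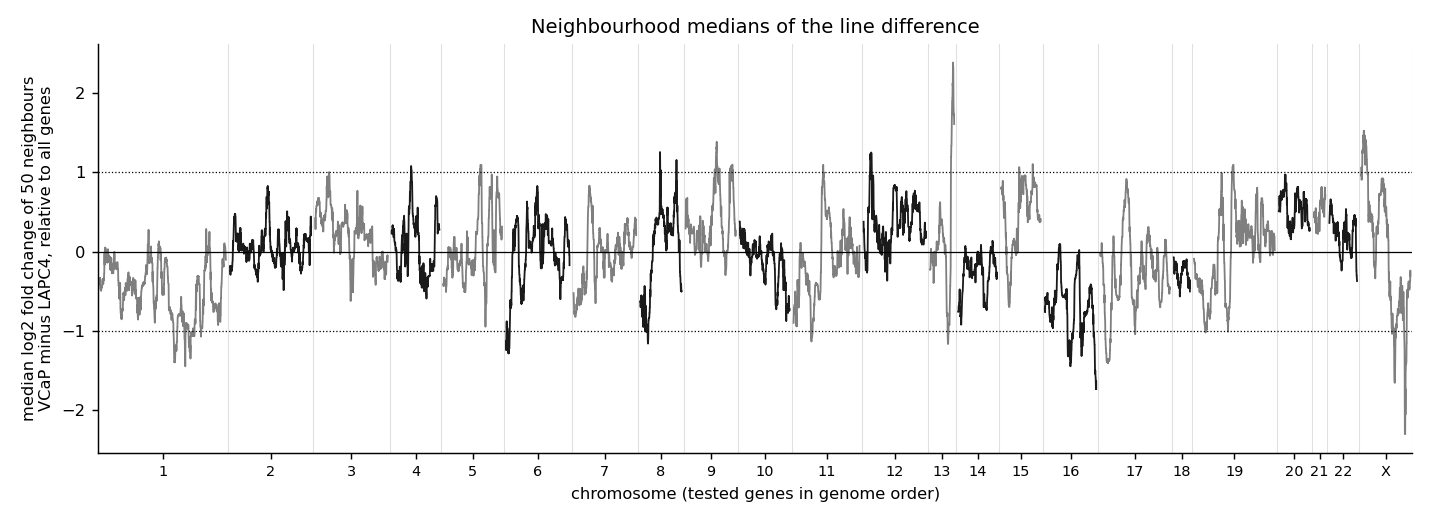
Median log2 fold change (VCaP minus LAPC4, relative to the median of all genes) of 50 neighbouring tested genes, along the chromosomes in genome order, with dotted lines at a factor of 2 and chromosome Y left out. The peak near the end of chromosome 13 reaches 2.39, and the troughs at the ends of chromosomes X and 16 reach -2.31 and -1.73.

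The line difference was largely the same at 8 h. Of genes called higher in VCaP at 22 h and tested at 8 h, 94.7% were called the same way, and of those higher in LAPC4 90.6%, while none was called the opposite way. Without the limit on the fold, 178 of 16035 genes with an adjusted p under 0.05 at both times (1.11%) differed in direction, 13 of them proliferation genes. Across the 19058 genes tested at both times the differences correlated with r = 0.988 and rho = 0.978, a description over genes of the same lines that are not independent. In the other 97 libraries of the series, which span both times, R1881 and darolutamide, every VCaP library lay above every LAPC4 library for 19.9% of all genes tested and for 63.8% of those called higher in VCaP at 22 h. The reverse order held for 19.5% of all genes and 65.8% of those called higher in LAPC4.

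ERG, KLK2, CHGA, CBLN2, GSTP1 and ERBB3 kept their order in the means of all 8 groups of each line. ERG group means ran from 135 to 1116 CPM in VCaP and up to 0.00972 in LAPC4. CHGA group means ran from 56.4 to 173 in VCaP and up to 0.0134 in LAPC4. GSTP1 group means ran from 314 to 355 in LAPC4 and up to 0.0286 in VCaP.

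**Figure D5:**
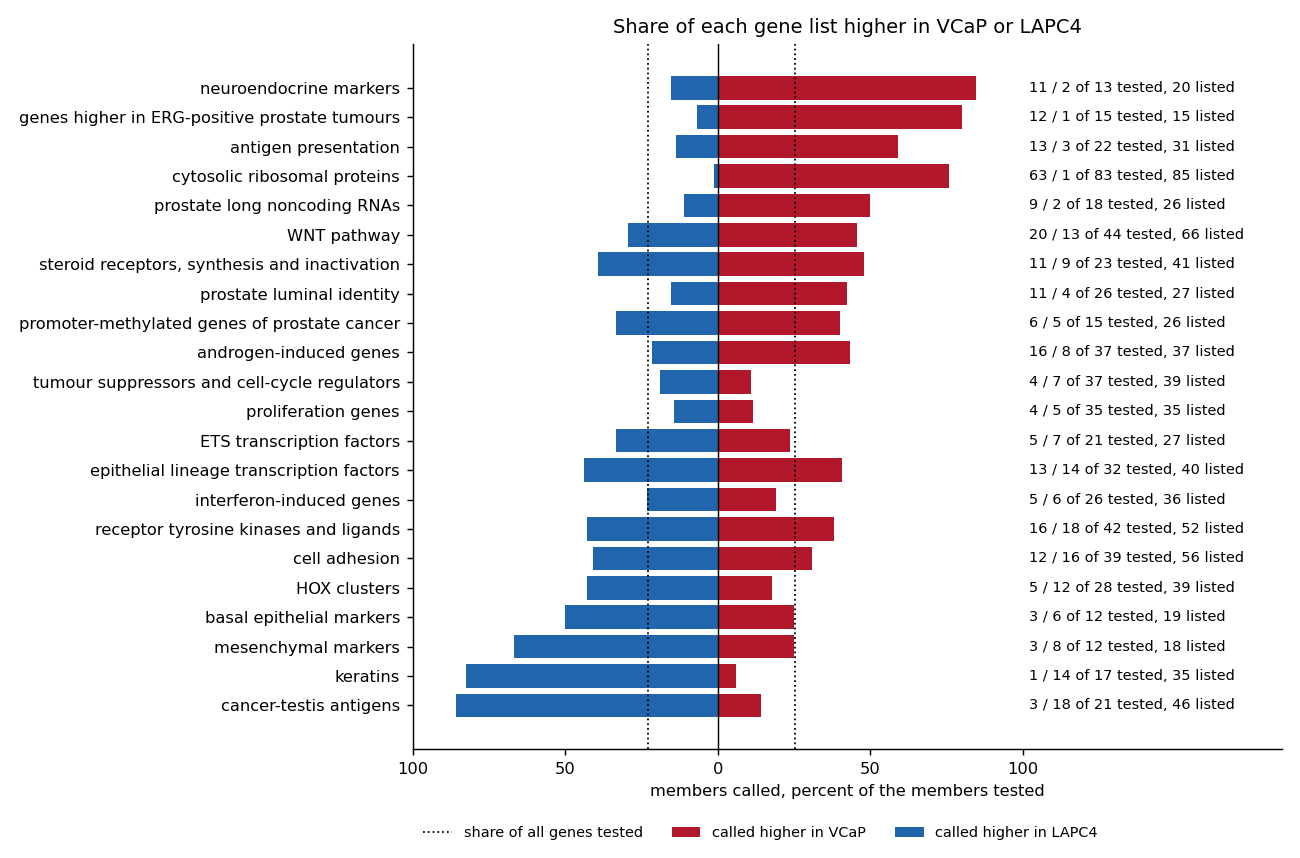
Share of the tested members of each gene list called higher in VCaP (red, right) or in LAPC4 (blue, left), in percent, with dotted lines at the shares of all genes tested, 25.4% and 22.9%, and the counts at the right. Neuroendocrine and ERG-associated genes extend toward VCaP, cancer-testis antigens, keratins and mesenchymal markers toward LAPC4, and proliferation genes fall short of both lines. Members that did not pass the read minimum are left out of the share, so a list of rarely expressed genes shows mostly members that one line expresses.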

How the data were processed

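RNA was measured by single-end sequencing of poly(A) libraries, on 2 prostate cancer cell lines. The deposited table holds raw read counts per gene, which the authors made with STAR and featureCounts (Subread) on GRCh38. Demultiplexing used bcl2fastq 2.17 per the labels. Versions of the aligner and counter, the annotation and the handling of multi-mapped reads are not given in the sources used here. Reads that fit copies of a gene equally well can therefore be lost or counted more than once. The study's methods give 5 biological replicates per condition, the labels give 8 and 7 libraries, and nothing says which are separate cultures.

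Counts were fitted with edgeR 4.0.16 (R 4.3.3, TMM factors, quasi-likelihood test, Benjamini-Hochberg adjustment over the 19218 genes that reached 10 reads in 4 or more libraries) with line as the only term. Calls needed an adjusted p under 0.05 and an absolute log2 fold change above 1. The 8 h and R1881 comparisons and their interactions were fitted the same way. Fitted folds of genes with no read in a line depend on the default prior count of the fit. A bound against 3 reads over the group is given instead, and for 1 to 3 reads a ratio with a 95% Poisson interval. A prior count of 2 was used only for log CPM, as in the GC slopes and the correlation of same-numbered libraries. Intervals and floors cover counting error only. DESeq2 1.42.0 and limma 3.58.1 (voom) were alternatives. In simulated data for the line comparison over 19218 genes, 67, 67 and 66 genes were changed by 0.5, 1.5 and 3 on the log2 scale. At an adjusted p under 0.05 with no fold limit, 70.1%, 97% and 100% of them were recovered. Of all genes passing, 5.82% had not been changed. In the real comparison 88.2% of genes passed that threshold, so the simulation does not give the false share of the calls reported here.

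Gene lists and members were chosen with earlier results of these data known. By rule, the named genes were ERG, from each list up to 3 called members highest in each line with at least 1 CPM and the least different member, all members of the luminal, basal, neuroendocrine and mesenchymal lists, the 10 largest differences in each direction found at both times, the 10 highest per exon length in each line, and the 10 highest of the genes on in 1 line only. Genes on in 1 line only had at least 10 CPM in every library of that line and under 0.1 CPM in every library of the other. Other list members, such as ERBB2, IGF1R and B2M, were named for their known roles after their values were seen. Symbols were matched to GENCODE 44 for position (33465 directly and 1625 through older symbols of 58684). A check of promoter sequence over sets of genes was void, since under 80% of them had an entry. Genes of chromosome Y were left out, and results for some genes are not reported here.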

Additional observations from a re-analysis of the deposited data

Results flagged for a closer look

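In 8 gene levels, 1 library stood apart from the rest of its line by Dixon's 95% limit, out of 312 gene-by-line groups tested, of which chance alone would give about 1 in 20. CHGB was lowest in VCaP replicate 1 (58.8 CPM), and IFIT5 was highest there (21.3 CPM). IGFBP5 was highest in VCaP replicate 2 (6.96 CPM) and GINS2 in VCaP replicate 6 (7.11 CPM). In LAPC4, HOXB6 (1.79 CPM) and HOXB3 (1.5 CPM) were highest in replicate 1, and in replicate 2 TYMS was highest (33.7 CPM) and RPS18 lowest (766 CPM). VCaP replicate 4 was the shallowest library, with 12951648 reads and 23704 genes with a read.

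By edgeR's interaction test over the 35 DMSO libraries, the line difference changed between 8 and 22 h for 12 genes flagged among those named. It moved toward VCaP for the mitotic genes MKI67 (1.76 on the log2 scale), TOP2A (1.97), AURKA (1.72), PTTG1 (1.59), KIF11 (1.56), PLK1 (1.84), CENPA (2.03) and CENPF (1.84), and for PKP1 (1.97). It moved toward LAPC4 for CDH2 (-1.81), HOXA7 (-2.07) and ETV5 (-1.03). Adjusted p-values of these ran from 5.37e-24 for AURKA to 0.0164 for HOXA7. RRM2, given above, was not flagged but was also called in this test, toward VCaP (1.10).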

How the results depend on the processing

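With DESeq2, limma-voom, RLE or upper-quartile factors, a GC covariate, every library of the series in the fit or another filter, the counts of calls over all genes stayed within 1.5 times those reported, except that without a filter 7639 genes were called higher in VCaP. With library totals only, 4233 genes were called higher in VCaP and 5466 in LAPC4, so VCaP held 43.6% of the calls against 52.7% with TMM factors, and the median of all genes moved by -0.24 on the log2 scale. Leaving out 1 library at a time gave 16807 to 16958 genes with an adjusted p under 0.05, 4883 to 4904 higher in VCaP and 4346 to 4434 higher in LAPC4. With the replicate block over numbers 1 to 7 the counts were 16792, 4889 and 4383. The same libraries without the block, a fit added after seeing the data, gave 16873, 4884 and 4375. Deviations of same-numbered libraries from their line means correlated with r from -0.209 to 0.165. Differently numbered libraries were not compared, so whether the numbers pair the libraries is not known. The genes on in 1 line only numbered 356 for VCaP and 148 for LAPC4 with at least 5 CPM against under 0.2 CPM. Of the 224 genes named, 4 changed direction in the 8 h libraries with an adjusted p under 0.05 at both times, MKI67 (-1.57), TOP2A (-0.74), AURKA (-0.30) and CENPA (-1.79), and 16 others changed their call or an unresolved sign. Such a change of call or sign was seen in 13 of them with library totals, 8 with the GC covariate, 6 with DESeq2, RLE or upper-quartile factors, and 1 to 5 with the other settings at 22 h. Of 46 counts over lists, 4 moved by over 1.5 times with edgeR's own filter (keratins higher in LAPC4 numbered 8, mesenchymal markers 5, basal markers 3 and neuroendocrine markers 1), 4 with a test against a factor of 2, 5 at 8 h and at most 2 with any other setting. TMM factors computed without translation genes, also added after seeing the data, moved the median by 0.03. DNA copy number, cell density and the number of cells per library were not measured.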
